A study of Bos taurus with 10 samples.

Results

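Cardiac lineage transcription factors switch on and maintain the genes of heart muscle. GATA4 and GATA6 are zinc finger proteins, MEF2A and MEF2C belong to the MEF2 family of MADS-box proteins, and SRF is a MADS-box protein that binds CArG boxes in the promoters of actin and other cytoskeletal genes. In the overloaded adult heart of rodents GATA4, MEF2 and SRF are known as mediators of growth, and much of that control acts on the proteins, by phosphorylation, nuclear entry and partner proteins, which an RNA measurement does not read.

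The factors were chosen by name, as 9 genes (GATA4, GATA6, MEF2A, MEF2C, MEF2D, TBX5, TBX20, HAND2 and SRF), and the measurements are every probe set, the group of short array probes that reads a transcript, whose only gene symbol in the platform annotation was among them. This gave 5 genes with 7 probe sets, of 9155 named genes and 24016 probe sets tested. MEF2A had 3 probe sets (Bt.25066.1.S1_at, Bt.29891.1.S1_at and Bt.29891.1.A1_at, from brightest to dimmest), and the others had 1 each: Bt.8960.1.S1_at for GATA4, Bt.24023.1.A1_at for GATA6, Bt.16150.1.A1_at for MEF2C and Bt.6536.1.S1_at for SRF. MEF2D, TBX5, TBX20 and HAND2 had no probe set with their symbol and were not analysed here.

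The samples were right ventricles of 10 male Holstein dairy calves on Affymetrix Bovine GeneChip arrays, 1 array per calf. Exposure began between postnatal days 3 and 7 and lasted 14 days in both groups. The 5 control calves (176, 177, 180, 181 and 195) stayed in ambient air at 1525 m, so the controls too lived above sea level, and the 5 hypoxia calves (173, 178, 192, 199 and 204, PH calf in the labels) were kept under hypobaric hypoxia that matched an altitude of 4570 m. Low oxygen constricts the arteries of the lung, the right ventricle then pumps against a higher pressure, and the question was what this exposure changes in its transcripts. Levels are log2 expression from RMA, differences are hypoxia minus control ± SE on that scale with n = 5 per group, and a probe set passed at an adjusted p of 0.05 (limma with Benjamini-Hochberg adjustment over all probe sets).

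None of the 5 genes passed. Over all named genes 3.66% passed on their brightest probe set, so a count of 0 of 5 lies near the background. The 7 probe sets also held 0 that passed, against 2.71% of all probe sets. GATA6 alone had an unadjusted limma p under 0.05, which 22.4% of named genes also had, and a plain linear model for each probe set passed 0 of the 5 genes. Control and hypoxia calves overlapped in every one of the 7 probe sets. Of named genes on their brightest probe set 7.31% had groups without overlap, so 0 of 5 genes lies near that background too. The median difference of the 5 genes was -0.08, beside -0.01 over all named genes. The 95% intervals of the 5 differences together ran from -0.53 to 0.54, which is from 1.44-fold lower to 1.45-fold higher in hypoxia. In bulk tissue, fewer cells of a type and less RNA per cell cannot be told apart.

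**Figure D1:**
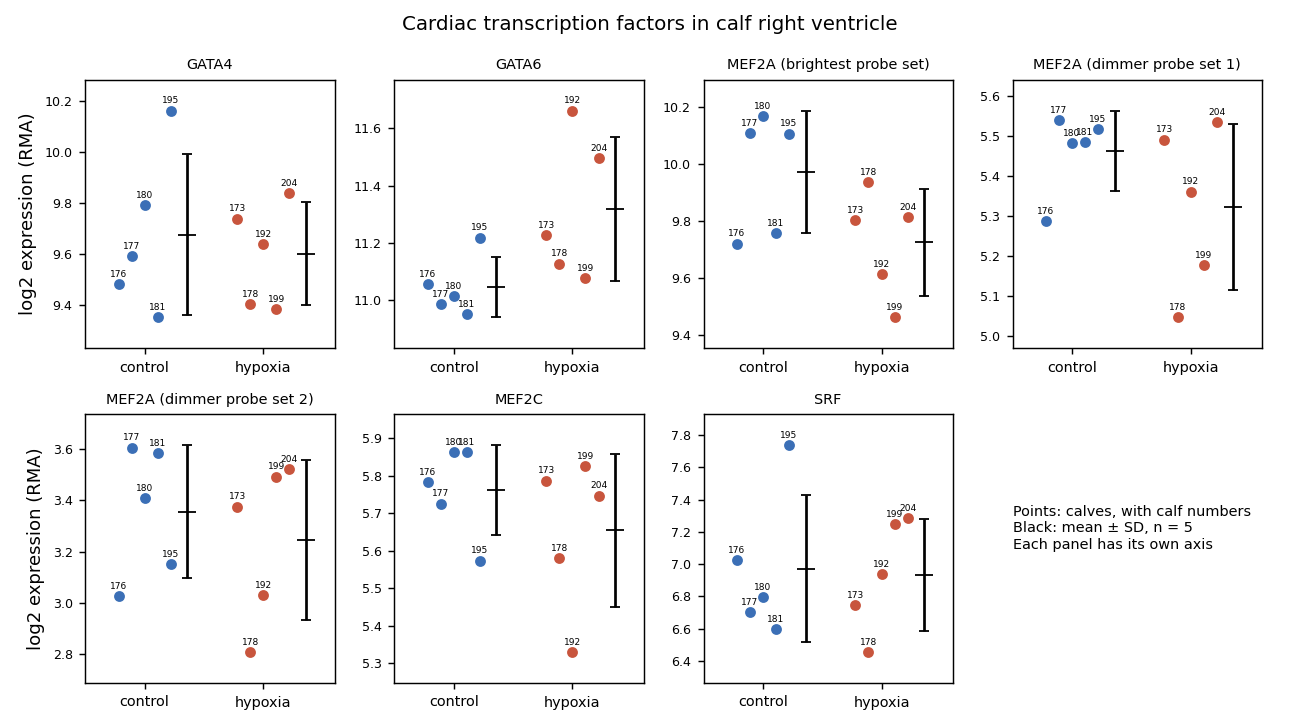
Log2 expression (RMA) of the 7 probe sets of GATA4, GATA6, MEF2A, MEF2C and SRF in each calf, with controls in blue, hypoxia calves in red, calf numbers above the points and the mean ± SD of each group in black. The groups overlap in every panel, with GATA6 higher than every control in 3 of 5 hypoxia calves.

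GATA6, a factor of the heart, the endoderm and vascular smooth muscle, had the highest difference of the factors. It was 11.06, 10.99, 11.01, 10.95 and 11.22 in control calves 176, 177, 180, 181 and 195, and 11.23, 11.13, 11.66, 11.08 and 11.50 in hypoxia calves 173, 178, 192, 199 and 204. All 5 hypoxia calves lay above the control median of 11.01 and 3 lay above the highest control, while calves 178 and 199 fell inside the control range. The difference was 0.27 ± 0.12, or 1.21-fold (95% interval 0.006 to 0.54; limma, adjusted p = 0.270). Without hypoxia calves 178 and 199, the 2 lowest of the hypoxia calves, it was 0.42, and leaving these out had to raise it. With a block for 2 runs of calf numbers (173 to 181 and 192 to 204) it was 0.18. It did not pass in either fit (limma, adjusted p over the alternatives that used both runs 0.154 to 0.509). The spread between calves was wider in hypoxia (SD 0.25) than in controls (SD 0.10), a difference that was not tested.

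GATA4, the factor that cooperates with NKX2-5 and TBX5 in heart muscle, differed little between groups. Its levels were 9.48, 9.59, 9.79, 9.35 and 10.16 in controls, in the order of calves above, and 9.74, 9.40, 9.64, 9.38 and 9.84 in hypoxia. Control calf 195 was the highest of all 10 calves, and the other 9 lay between 9.35 and 9.84 with the groups mixed. The difference was -0.08 ± 0.16 (95% interval -0.41 to 0.26; limma, adjusted p = 0.860). Without calf 195 it was 0.05, and with array weights 0.01. With the run of calf numbers as a block it was -0.18, and without control calf 181 it was -0.16. The hypoxia values all lay within the control range.

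MEF2A is a MEF2 factor of adult muscle with a role in metabolic and structural genes. Its brightest probe set read 9.72, 10.11, 10.17, 9.76 and 10.11 in controls 176, 177, 180, 181 and 195. In hypoxia it read 9.80, 9.94, 9.61, 9.46 and 9.81 in calves 173, 178, 192, 199 and 204. Every hypoxia calf lay below the control median of 10.11, and calves 192 and 199 lay below the lowest control. The difference was -0.25 ± 0.13, or 1.19-fold lower in hypoxia in value (95% interval -0.52 to 0.03, limma, adjusted p = 0.343). It stayed between -0.31 and -0.17 in the 20 alternatives that used both runs of calf numbers, without passing in any. In fits chosen after seeing the data, it was -0.07 ± 0.17 within the lower run (4 controls and 2 hypoxia calves). Within the upper run (1 control and 3 hypoxia calves) it was -0.48, with no spread between controls to set it against.

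The other MEF2A probe sets had the same sign with smaller values. Bt.29891.1.S1_at differed by -0.14 ± 0.11 (limma, adjusted p = 0.568), from 5.46 ± 0.10 (SD) in controls to 5.32 ± 0.21, and its lowest values were 5.05 and 5.18 in hypoxia calves 178 and 199, the only calves below every control. Without those calves the difference was under 0.001 in size, at -0.00011, and leaving out the lowest hypoxia values had to raise it. Bt.29891.1.A1_at differed by -0.11 ± 0.17 (adjusted p = 0.796), with values from 3.03 to 3.60 in controls and from 2.81 to 3.52 in hypoxia. Both probe sets had means over all calves (5.39 and 3.30) below the median of all probe sets, 5.52, and the deposited values carry no call of presence or absence. The mean of the 3 probe sets differed by -0.17 ± 0.10 (adjusted p = 0.384 over named genes).

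MEF2C, the MEF2 factor needed to form the right ventricle in the mouse embryo and also expressed in endothelial cells, was close between groups. Levels were 5.78, 5.73, 5.86, 5.86 and 5.57 in controls and 5.79, 5.58, 5.33, 5.83 and 5.75 in hypoxia, again in the order of calf numbers. Hypoxia calf 192 was lowest of all, and the other 4 hypoxia calves lay inside the control range. The difference was -0.11 ± 0.11 (95% interval -0.35 to 0.14; limma, adjusted p = 0.683), and it was -0.03 without calf 192. The mean over all calves, 5.71, was only slightly above the median of all probe sets.

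SRF varied most between calves of the 5 genes, and 10.7% of named genes had a larger pooled SD within groups. It read 7.03, 6.70, 6.80, 6.60 and 7.74 in controls and 6.75, 6.46, 6.94, 7.25 and 7.29 in hypoxia. The difference was -0.04 ± 0.22 (95% interval -0.53 to 0.45; limma, adjusted p = 0.953), with control calf 195 the highest of all and hypoxia calf 178 the lowest. By number the animals form 2 runs. The lower run, 173 to 181, holds 4 controls and 2 hypoxia animals, and the upper run, 192 to 204, holds 1 control and 3 hypoxia animals. SRF lay between 6.46 and 7.03 in the lower run and between 6.94 and 7.74 in the upper run. With the run as a block the difference was -0.32 ± 0.14 (adjusted p = 0.278), and without calf 195 it was 0.15. What the runs of numbers stand for is not stated in the labels, and their part in the values was not tested.

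**Figure D2:**
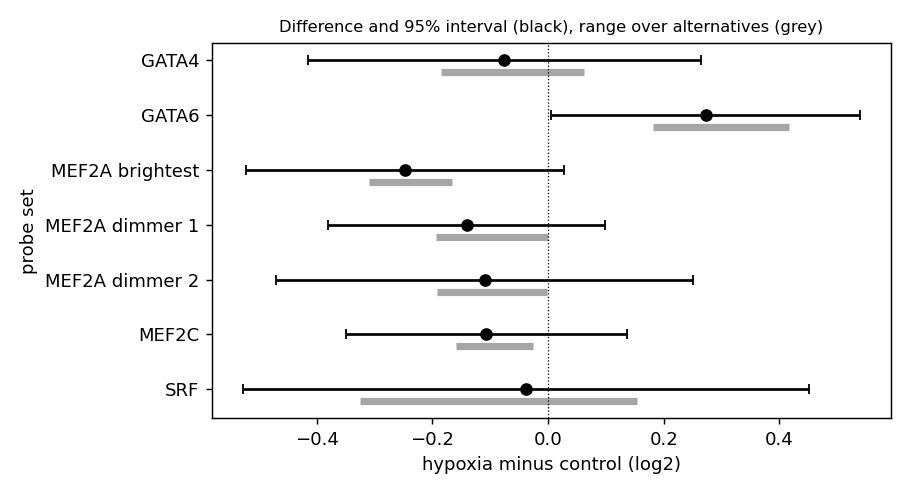
Difference between hypoxia and control on the log2 scale for each probe set, with its 95% interval in black and, in grey, the range of the difference over the 18 to 20 alternatives run on it. The interval of GATA6 starts just above 0 at 0.006, the other intervals hold 0, and the grey ranges of GATA4 and SRF cross 0.

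Single calves held extreme values of different factors, and whether the factors vary together was not tested. Control calf 195, the only control in the upper run of calf numbers, had the highest control value of GATA4, GATA6 and SRF and the lowest of MEF2C. Hypoxia calf 192 had the highest GATA6 and the lowest MEF2C of all 10 calves. For each factor the gene that followed it most closely was sought among 9150 other named genes, by Pearson's r over 10 calves after the group means were subtracted. It was MYH8, a developmental myosin heavy chain, for GATA4 (r = 0.95, Spearman's rho = 0.88), and PF4, a platelet chemokine, for SRF (r = 0.96, rho = 0.92). It was FBXO34 for GATA6 (r = 0.92, rho = 0.84), SPTAN1, a spectrin of the membrane skeleton, for MEF2A (r = 0.93, rho = 0.76) and BDH2 for MEF2C (r = 0.90, rho = 0.84). Without the 2 calves farthest from the factor's median, r was 0.96 for GATA4, 0.91 for GATA6, 0.86 for MEF2A, 0.76 for MEF2C and 0.89 for SRF. Between 18 genes (MEF2C) and 115 genes (GATA4) had an r over 0.8 with a factor, these being the highest of many values over few calves, so no p is given.

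Other transcription factors of heart development did not pass. Of 18 measured genes in a list of 44, 0 passed and 3 had an unadjusted p under 0.05 (limma), with a median difference of -0.04. TEAD4, a DNA-binding partner of the Hippo pathway coactivators, came closest, at 5.99, 5.57, 5.69, 5.93 and 5.56 in controls 176, 177, 180, 181 and 195 and 6.21, 6.29, 6.72, 7.76 and 6.69 in hypoxia calves 173, 178, 192, 199 and 204. The groups did not overlap, with calf 199 far above the others, and the difference of 0.98 ± 0.25 did not pass (adjusted p = 0.0624). Without calf 199 it was 0.73 and passed (adjusted p = 0.0387), without calf 173 it was 1.12 and passed (adjusted p = 0.0463), and it also passed among probe sets above the median brightness (adjusted p = 0.0427). With the run of calf numbers as a block it was 0.83 (adjusted p = 0.149), and in the plain linear model the adjusted p was 0.163. The related TEAD2 differed by -0.39 ± 0.14 (adjusted p = 0.150), and MEIS2, a homeobox factor, by -0.27 ± 0.12 (adjusted p = 0.265).

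Relatives of the factors were looked at after their values were seen. HAND1, the sister gene of HAND2 and in the mouse embryo mainly a factor of the left ventricle, was 7.47, 6.85, 7.53, 6.74 and 7.22 in controls and 6.88, 6.73, 6.86, 5.01 and 6.91 in hypoxia, in the order of calf numbers. Hypoxia calf 199 lay far below all others. The difference was -0.69 ± 0.34 (limma, adjusted p = 0.328), and it was -0.32 ± 0.17 without that calf (adjusted p = 0.403). GATA5, a relative of GATA4 and GATA6, differed by -0.04 ± 0.09 (adjusted p = 0.867).

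**Figure D3:**
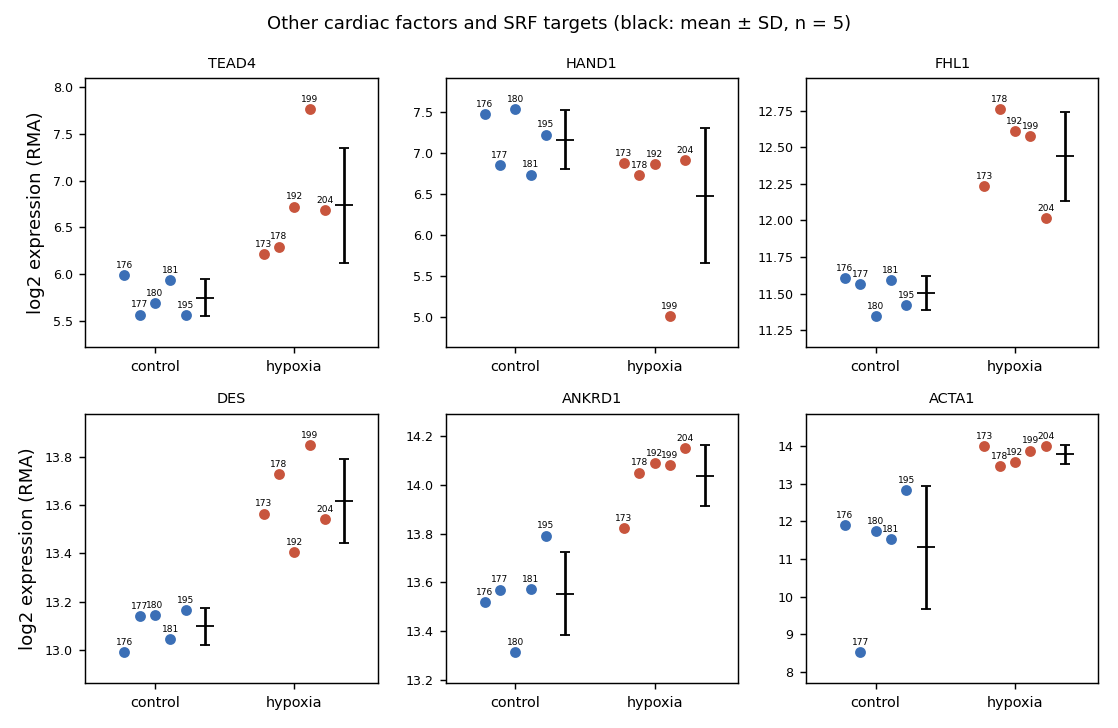
Log2 expression (RMA) of the cardiac factors TEAD4 and HAND1 and of the SRF targets FHL1, DES, ANKRD1 and ACTA1 in each calf, with controls in blue, hypoxia calves in red and the mean ± SD in black. Groups do not overlap in 5 of the 6 panels, and hypoxia calf 199 stands apart for TEAD4 (7.76) and HAND1 (5.01). These genes were chosen by their p or after their values were seen. Groups did not overlap in 5 of 25 measured SRF targets and 1 of 18 other cardiac factors, beside 7.31% of named genes.

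Partner proteins of the factors did not pass either. Of 19 measured coactivators, corepressors and signalling partners in a list of 46, 0 passed and 6 had an unadjusted p under 0.05 (limma), 3 of them higher and 3 lower, with a median difference of -0.08. HDAC5, a class IIa deacetylase that binds MEF2 and represses its targets, differed by -0.41 ± 0.14 (adjusted p = 0.148). HDAC7, of the same class, differed by 0.32 ± 0.14 (adjusted p = 0.270). PPP3CB, a catalytic subunit of the phosphatase calcineurin, differed by -0.34 ± 0.12 (adjusted p = 0.152), and PPP3CA, another catalytic subunit, by 0.30 ± 0.13 (adjusted p = 0.264). HDAC7 and PPP3CA were chosen after their values were seen. SMARCD3, the chromatin remodelling subunit that works with GATA4 and TBX5, differed by -0.46 ± 0.17 (adjusted p = 0.187), and it passed only without control calf 180, at -0.62 (adjusted p = 0.0358).

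Among genes known as SRF targets, 3 of 25 measured (a list of 30 that holds SRF itself) rose and 0 fell, beside 2.17% of named genes that rose and 1.49% that fell. The median difference of the list was 0.26, beside -0.01 over all named genes, and 9 of its genes had an unadjusted p under 0.05, all of them higher in hypoxia, beside 11.1% of named genes with such a p and a higher value. DES, ACTA2, TAGLN, MYH11 and CNN1 are also in the list of smooth muscle markers, whose mean differed by 0.29 (exact permutation p = 0.0714, adjusted p = 0.125). The part of smooth muscle in the list of SRF targets was not tested. DES is not particular to smooth muscle, and its control mean of 13.1 lay within those of the cardiomyocyte markers (12.3 to 14.2). Of the 20 targets outside the smooth muscle list 2 rose, with a median difference of 0.26. The 3 are structural and stress proteins of muscle, and 2 more, ACTA1 and DSTN, had groups without overlap and did not pass. Groups did not overlap in 5 of the 25 targets, beside 7.31% of named genes. FHL1, a LIM protein of the sarcomere, ran from 11.34 to 11.60 in controls and from 12.02 to 12.76 in hypoxia, and it rose by 0.93 ± 0.14 (limma, adjusted p = 0.00931). DES, the muscle intermediate filament, ran from 12.99 to 13.17 in controls and from 13.40 to 13.85 in hypoxia, and it rose by 0.52 ± 0.10 (adjusted p = 0.0209). ANKRD1, a stretch-responsive ankyrin repeat protein, ran from 13.31 to 13.79 and from 13.82 to 14.15, and it rose by 0.49 ± 0.10 (adjusted p = 0.0329).

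Calls within the list moved with single calves. ACTA1, skeletal muscle alpha-actin, differed by 2.47 ± 0.61 without passing (limma, adjusted p = 0.0572), with control calf 177 at 8.54 and the other controls at 11.5 to 12.8, and it was 1.78 and passed without that calf (adjusted p = 0.0132). It also passed without control calf 195 (2.85, adjusted p = 0.0354) and, with all calves kept, in 4 alternatives (adjusted p = 0.0362 to 0.0478). DSTN, the actin-severing protein destrin, differed by 0.90 ± 0.22 (adjusted p = 0.0524), and it passed without control calf 195 (0.995, adjusted p = 0.0497) or hypoxia calf 173 (1.01, adjusted p = 0.0412) and in 5 alternatives that kept all calves (adjusted p = 0.0354 to 0.0472). FOS and EGR1, immediate early genes singled out after their values were seen, differed by -1.69 ± 0.87 (adjusted p = 0.346) and -1.20 ± 0.62 (adjusted p = 0.351), with controls from 7.32 to 12.3 for FOS and from 8.94 to 12.0 for EGR1. With 1 animal left out, ANKRD1 kept its call only where that animal was control 195 or hypoxia 173 (highest adjusted p of these fits 0.076). It did not pass with the block (0.40, adjusted p = 0.0848) or without calves 178 and 199 (0.47, adjusted p = 0.159). These fits read its brightest probe set. ANKRD1 has 2 probe sets, and each passed with all calves kept. Averaged in each calf, they gave a larger rise of 0.77, which also passed. DES did not pass when control calf 181 was left out (adjusted p = 0.0585) and with the block (adjusted p = 0.0572). Without calves 178 and 199 DES differed by 0.41 and did not pass either, and its highest adjusted p over all alternatives was 0.0997 (limma). The plain linear model ended all 3 calls, FHL1 (adjusted p = 0.0565) and ANKRD1 (adjusted p = 0.0742) included. The number of targets that passed was 1 without control calf 181 and 5 without control calf 195. DES and the brightest probe set of ANKRD1 lie near the highest value on any array, 14.4, where RMA values can be compressed. SRF and its targets come from the same arrays, and whether their differences are related was not tested.

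Cardiomyocyte genes known as targets of GATA, MEF2 and T-box factors showed 0 of 20 measured genes that passed on their brightest probe set, and 3 with an unadjusted p under 0.05 (limma). The median difference was 0.01. No measured gene is in both this list and that of SRF targets, although a gene can have regulators of both kinds. The target lists were not compared by a test. MYH7, the slow myosin heavy chain, looked at after its values were seen, differed by 0.05 ± 0.09 on its brightest probe set (adjusted p = 0.832), whose mean of 14.2 lies near the highest value on any array. A dimmer one of its 3 probe sets, Bt.28390.1.S1_at, fell by 0.69 ± 0.15 (adjusted p = 0.0371), from 10.3 to 9.60. NPPA, which encodes a natriuretic hormone of the atrium, was 2.13 ± 0.63 higher in value (adjusted p = 0.0980), and calf 199 stood at 12.9 among hypoxia animals otherwise at 9.89 to 10.6. SLC8A1, the sodium-calcium exchanger, differed by 0.46 ± 0.19 (adjusted p = 0.234), and COX7A1, a muscle subunit of cytochrome c oxidase, by -0.18 ± 0.08 (adjusted p = 0.274). Regulators of skeletal muscle, a lineage that uses MEF2 and SRF with other partners, differed by -0.04 to 0.05 in the 5 genes measured, MYF6 (0.05 ± 0.11), MYOD1 (0.04 ± 0.12) and MYOG (-0.04 ± 0.12) among them, with 0 under an unadjusted p of 0.05 and adjusted p of 0.875 or higher. Their means over all calves ran from 2.53 to 4.32, below the median of all probe sets, 5.52, and a difference near 0 at that level says little.

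**Figure D4:**
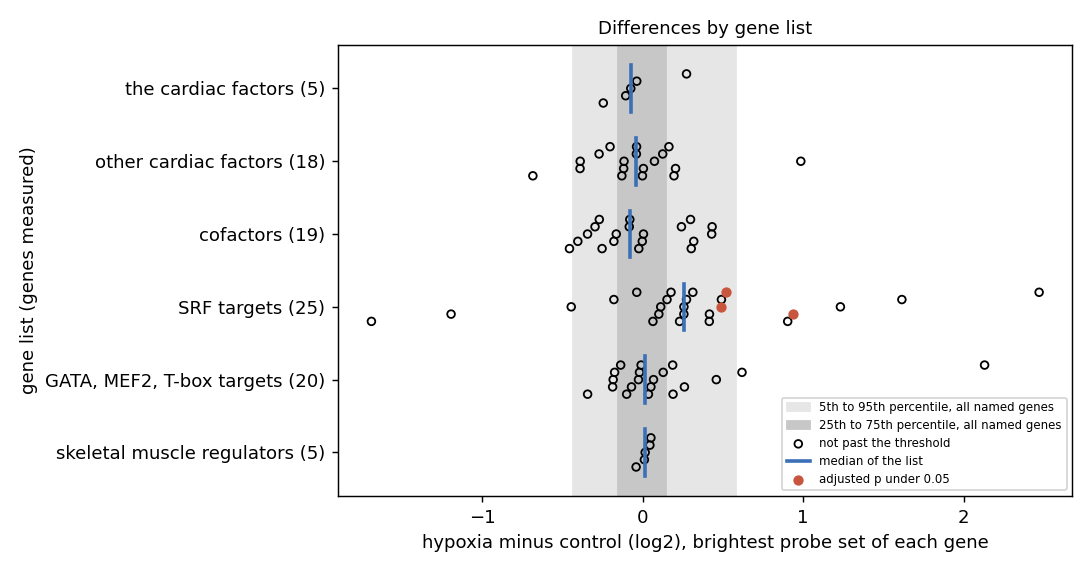
Difference between hypoxia and control (log2) of each measured gene in 6 lists, with filled red points for genes that passed, blue bars for list medians and grey bands for percentiles of all 9155 named genes. The 5 cardiac factors lie between -0.25 and 0.27, and on their brightest probe sets the only genes that passed are 3 SRF targets.

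Markers of the cell types in the tissue were averaged over each list in each calf. Cardiomyocyte markers, 12 of 14 measured, lay between 13.5 and 13.7 in all calves and differed by 0.03 (exact two-sided permutation test, p = 0.492, adjusted p = 0.492 over 7 lists). Their means over all calves ran from 12.2 to 14.2, with 6 of the 12 above 14, where RMA values can be compressed, so that a small difference says little. Endothelial markers, 13 of 14 measured, ran from 6.94 to 7.32 in controls and from 7.12 to 7.67 in hypoxia (exact permutation p = 0.0476, adjusted p = 0.111), and smooth muscle markers, 11 of 13, from 8.19 to 8.68 and from 8.44 to 8.95 (exact permutation p = 0.0714, adjusted p = 0.125). Fibroblast and macrophage lists differed by 0.21 and 0.44 (exact permutation p = 0.286 and 0.119). The fibroblast mean averages opposite calls, in the 2 of its 14 genes that passed, beside 3.66% of named genes. PDGFRA, a receptor for platelet-derived growth factor, fell by 0.89 on its brightest probe set (limma, adjusted p = 0.0213). Of its 3 probe sets only 1 passed, and their mean differed by -0.23. The difference of PI16, found in fibroblasts around vessels, was 1.71 (limma, adjusted p = 0.0238). The call on PDGFRA was lost when control calf 177 or 181 was omitted (adjusted p = 0.0517 and 0.0596). That on PI16 was lost when control calf 181 or hypoxia calf 178 was omitted (adjusted p = 0.054 and 0.0549). Both were lost with the block (adjusted p = 0.0604 and 0.0582) and in the plain linear model (adjusted p = 0.081 and 0.0981). Each was also lost in a further alternative, with highest adjusted p over all alternatives of 0.156 for PDGFRA and 0.106 for PI16. Markers of dividing cells, 13 of 16 measured, did not overlap, from 5.15 to 5.43 and from 5.78 to 6.78 (exact permutation p = 0.00794, the lowest possible with these group sizes, adjusted p = 0.0556). Adjusted over 7 lists, that lowest p becomes 0.0556 for a single list, so 1 list alone could not pass at 0.05. Of the genes for dividing cells 6 rose by 1.14 to 3.00 (limma), beside 2.17% of named genes that rose. The other 7 did not pass, with differences from 0.04 to 1.02. Atrial and epicardial markers, NPPA among them, differed by 0.40 (exact permutation p = 0.0159, adjusted p = 0.0556), and the 9 without NPPA by 0.21 (exact permutation p = 0.111). Most of these markers (UPK1B, KRT8, KRT19, MSLN, SLN and UPK3B) had means below the median of all probe sets, 5.52, where differences say little. GATA6 is expressed in smooth muscle and MEF2C in endothelium, and the part of these cell types in their values was not tested.

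**Figure D5:**
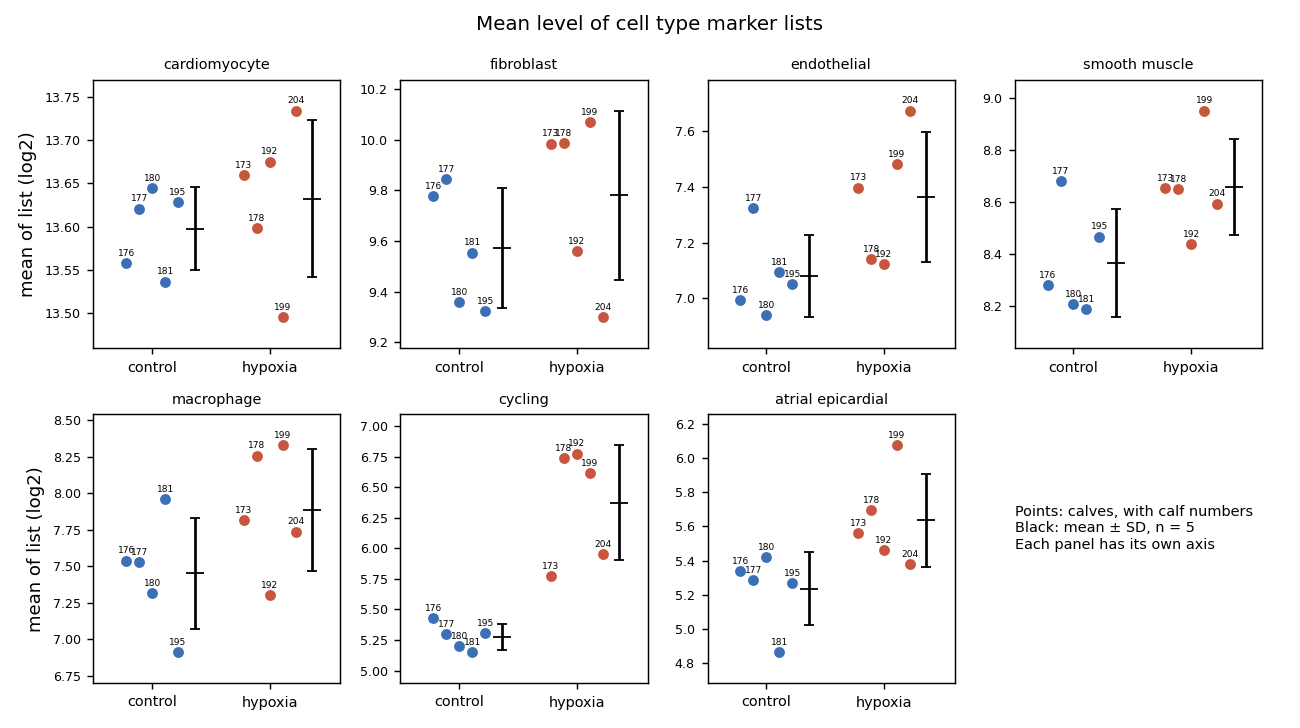
Mean log2 expression of 7 cell type marker lists in each calf, with controls in blue, hypoxia calves in red, calf numbers above the points and the mean ± SD in black. Only the list of dividing cells separates the groups, and cardiomyocyte markers lie within 13.5 to 13.7 in every calf, close to the highest value on any array (14.4), where differences can be compressed.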

How the data were processed

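Each right ventricle gave total RNA for 1 Affymetrix Bovine array with biotin label, per the labels. The deposited tables hold log2 expression values per probe set, made by the authors with RMA, per the submitters' processing notes; its software, version and genome build are not stated there. Because RMA brings all arrays to nearly the same distribution, a change common to every transcript would not show. Both tables held the same values in 24016 shared probe sets (largest difference 0), so 1 was used, without 112 control probe sets. Array medians lay between 5.48 and 5.54. Pearson's r between arrays lay between 0.974 and 0.993 across probe sets, which are not independent replicates. The number of arrays limits the precision, and p-values measure the spread between calves.

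Symbols came from the platform annotation and none changed through the cattle reference ARS-UCD2.0. A gene was represented by the probe set with the highest mean over all 10 arrays. Differences were fitted with limma 3.58.1 in R 4.3.3 (lmFit, eBayes) on all 24016 probe sets. The procedure was tested on simulated data. Figures were drawn with matplotlib 3.10.9. The factors, lists and tests were chosen with earlier results of these data known. Named genes were the factors, the genes of each other list that passed or else the 3 with the smallest p, and the gene most alike each factor. Genes of the marker lists were not named by this rule. HAND1, GATA5, ACTA1, DSTN, FOS, EGR1, HDAC7, PPP3CA, MYH7, PI16 and PDGFRA were added after their values were seen. Alternatives covered the scaling of arrays, a brightness filter, the variance model, array weights, a plain linear model, the run of calf numbers, the mean of a gene's probe sets and leaving out calves.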

Additional observations from a re-analysis of the deposited data

Results flagged for a closer look

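In 80 groups of 5 calves checked for 1 calf far from the others (Dixon's ratio above 0.71), 5 were found. Chance flags about 1 in 20 groups.

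For MEF2A, control calf 176 read 5.29 on probe set Bt.29891.1.S1_at, against 5.48 to 5.54 in the other controls, and it was the only such value among the 14 groups of the cardiac factors. HAND1 was 5.01 in hypoxia calf 199, against 6.73 to 6.91 in the other hypoxia calves. NPPA was 12.9 in the same calf, against 9.89 to 10.6. MYOD1 was 3.88 in control calf 177, against 4.32 to 4.48. The mean of the atrial and epicardial markers was 4.87 in control calf 181, against 5.27 to 5.42.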

How the results depend on the processing

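None of the 5 factors passed in any of the alternatives run on them, and their median difference stayed between -0.18 and 0.05. GATA6, MEF2A and MEF2C kept their sign in every alternative over both runs of calf numbers. Signs turned for SRF with array weights (0.026), without hypoxia calves 178 and 199 (0.017) and among fits that left out 1 calf (-0.13 to 0.15), and for GATA4 with array weights (0.011), without calves 178 and 199 (0.063), among fits that left out 1 calf (-0.16 to 0.046) and within the lower run (0.017). Within the upper run, which has 1 control assumed to vary like the other calves, they turned for MEF2C (0.060) and MEF2A probe set Bt.29891.1.A1_at (0.20). They also turned for MYOG with array weights (0.027) and among fits without 1 calf (-0.13 to 0.027), MYOD1 with the block (-0.032), the mean of probe sets (-0.036) and without 1 calf (-0.062 to 0.088), and MYF6 without 1 calf (-0.015 to 0.0998). MYH7 turned with the mean of probe sets (-0.27). The within-run fits, the lists without NPPA or smooth muscle genes, and all alternatives on other named genes and marker lists, were chosen after seeing the data. The causes were not tested.

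Probe sets that passed fell from 652 to 37 with the plain linear model, 217 with the block, 155 without calves 178 and 199, and 241 to 605 without 1 calf. SRF targets that passed were 5 with the brightness filter, with trend, with array weights and with the mean of probe sets, 0 with the plain model, 1 with the block, 1 without calves 178 and 199, and 1 to 5 without 1 calf. Other cardiac factors had 1 with the brightness filter and 0 to 1 without 1 calf, and partner proteins 0 to 1 without 1 calf. Marker lists of dividing cells (0.99 to 1.24 without 1 calf) and of atrium and epicardium (0.29 to 0.46) passed only without hypoxia calf 204 (exact permutation test, adjusted p = 0.0278 for both). With 7 lists the exact test cannot bring a single list below an adjusted p of 0.0556. Each list passed there only because both reached the lowest possible p, so this says little about calf 204. The brightness filter left out the dimmer MEF2A probe sets. No paired analysis was possible because the groups share no calf number.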
